A study of Mus musculus with 3 samples.

Results

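Interferon-inducible GTPases were followed by single-nucleus RNA sequencing of the mouse dorsal root ganglion (DRG), where the somas of sensory neurons lie with their glia. The set holds 10 genes of the 32227 in the count matrices. Of these, 6 belong to the immunity-related GTPase (IRG) family (Tgtp1, Tgtp2, Iigp1, Igtp, Irgm1 and Irgm2) and 4 to the guanylate-binding proteins (Gbp2, Gbp4, Gbp7 and Gbp9). The genes were chosen by their measured difference between the aged and the adult libraries, so their values by age are given as a description with no test. The choice did not compare cell classes, neuron subtypes or single nuclei, but 2 of the 3 libraries are aged, so a class in which the genes were high in the aged libraries draws on values used for it. The labels give male C57BL/6 mice with no treatment. The study's general account of its animals gives aged mice as female, and the labels were used here. The lumbar ganglia L3 to L5 were frozen before nuclei were isolated. Adult mice (3 months) gave 1 library and aged mice (21 months) gave 2, by PIP-seq, in which nuclei are partitioned with barcoded particles and each captured transcript carries a unique molecular identifier (UMI). The study describes the libraries as biological replicates. The number of mice behind a library is not given in the labels, so a library was taken as 1 replicate, p-values measure the spread between these libraries, and nothing can be said of the spread among adult libraries.

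Interferon gamma binds a surface receptor with the Janus kinases Jak1 and Jak2, and the signal reaches promoters at gamma-activated sites (GAS). Type I interferon acts through interferon-stimulated response elements (ISRE). IRG and GBP genes are among the most responsive targets of this pathway. Their products are large GTPases that assemble on the vacuoles of intracellular pathogens: Tgtp1, Tgtp2 and Iigp1 are effectors that help to disrupt the vacuole, and Igtp, Irgm1 and Irgm2 are regulators that sit on the cell's own membranes and keep the effectors inactive there. GBPs coat vacuoles and cytosolic bacteria and promote inflammasome activation, and the autophagy conjugation proteins help to direct both families to their targets.

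The promoters of these genes carry letters that match those elements, and the stretches are shown because these elements are the known route by which interferon acts on such genes. RefSeq windows of 300 bases (250 before to 50 after the annotated start, GRCm38.p6) were found for 7 of the 10 genes, namely Tgtp1, Tgtp2, Igtp, Irgm1, Irgm2, Gbp2 and Gbp7. The letters GAAANNGAAA, searched on both strands as the core of an ISRE, were in 7 of the 7 windows and in 3.44% of all 32851 windows. The letters TTCNNNGAA, which read the same on both strands and are the core of a GAS, were in 5 of the 7 and in 8.30% of all windows. In each stretch of 50 bases, written 5′ to 3′ on the gene's strand, capitals mark both kinds of match.
Tgtp1, chr11:48992299-48992348, minus strand: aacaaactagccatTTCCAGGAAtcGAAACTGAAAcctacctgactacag
Tgtp2, chr11:49064258-49064307, minus strand: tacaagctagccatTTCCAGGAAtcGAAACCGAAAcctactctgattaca
Igtp, chr11:58199497-58199546, plus strand: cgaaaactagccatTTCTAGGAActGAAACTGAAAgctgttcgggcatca
Irgm2, chr11:58214888-58214937, plus strand: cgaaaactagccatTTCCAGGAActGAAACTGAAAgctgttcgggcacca
Irgm1, chr11:48871420-48871469, minus strand: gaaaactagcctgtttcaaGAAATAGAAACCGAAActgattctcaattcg
Gbp2, chr3:142620579-142620628, plus strand: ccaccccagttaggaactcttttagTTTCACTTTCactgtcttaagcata
Gbp7, chr3:142530258-142530307, plus strand: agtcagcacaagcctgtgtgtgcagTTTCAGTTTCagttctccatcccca

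In Tgtp1, Tgtp2, Igtp and Irgm2 the GAS-like letters began 11 bases 5′ of the ISRE-like letters, with the same few letters directly before them. Between and after the matches the letters were alike in Tgtp1 and Tgtp2, and in Igtp and Irgm2, but differed between these pairs. Irgm1 held 2 overlapping ISRE-like matches and no GAS-like match. In Gbp2 and Gbp7 the ISRE-like letters lay on the opposite strand, and the GAS-like letters of Gbp7 lay outside the stretch shown. A match of letters is a description of sequence, and binding was not measured here.

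Neighbouring and overlapping gene models limit how far the counts of single members can be separated. In GENCODE M21 (GRCm38) Tgtp1 (ENSMUSG00000078922, chromosome 11, 48985327 to 48994172) and Tgtp2 (ENSMUSG00000078921, chromosome 11, 49057194 to 49064206) are near-identical copies, between which reads can be split or lost. Igtp (ENSMUSG00000078853, chromosome 11, 58199556 to 58207591) lies almost wholly within the span of Irgm2 (ENSMUSG00000069874, chromosome 11, 58199618 to 58222782) on the same strand. Igtp had 3 UMIs in all nuclei, all in adult neurons, so an Igtp level cannot be given, and how reads of the shared span were assigned was not tested. Tgtp1 shares 223 of its 3205 exonic bases (6.96%) with Gm12185 on the same strand, which is in the matrices. Gbp4 (ENSMUSG00000079363, chromosome 5, 105115767 to 105139586) and Gbp9 (ENSMUSG00000029298, chromosome 5, 105077630 to 105139539) overlap each other and Gbp8 on the same strand. Irgm1 (ENSMUSG00000046879, chromosome 11, 48861968 to 48871683), Gbp2 (ENSMUSG00000028270, chromosome 3, 142620602 to 142638008) and Iigp1 (ENSMUSG00000054072, chromosome 18, 60376027 to 60392634) overlap no other gene of the matrices. Gbp7 (ENSMUSG00000040253, chromosome 3, 142530342 to 142550149) shares 637 of its 5614 exonic bases with a processed pseudogene that is not in the matrices.

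Barcodes with more than 1000 genes were taken as nuclei, which left 11518 adult nuclei and 5130 and 2611 aged ones (replicates 1 and 2), with medians of 3269, 4317.5 and 4900 UMIs. Libraries shared at most 1 barcode with each other. Clusters were named from marker genes and are called "like" a cell type, since the names were rebuilt from the counts. The largest glial class, like satellite glial cells (SGCs, which envelop sensory neuron somas), held 3399, 546 and 271 nuclei, and its nuclei were deeper in the aged libraries (medians of 7243.5 and 7862 UMIs) than in the adult one (3213). Levels are given as CPM, the UMIs of a gene in the nuclei of a class and library per 1000000 UMIs of those nuclei, and values for the 3 libraries stand in the order adult, aged replicate 1, aged replicate 2. Barcodes of at most 100 UMIs stand for RNA free of nuclei, in which the 10 genes summed to 79.0, 209 and 127 CPM. Free RNA had the same order of libraries as the SGC-, NMSC-, MSC- and fibroblast-like classes and neurons, with aged replicate 1 highest and the adult library lowest. Estimated from markers of other cell types, free RNA made up 49.3%, 37.6% and 34.3% of the UMIs in SGC-like nuclei, 37.1%, 30.2% and 22.2% in NMSC-like, 84.2%, 48.3% and 48.1% in MSC-like and 67.4%, 57.3% and 29.5% in endothelial-like nuclei. The larger changes that came with its subtraction are given beside the results.

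Of the 10 classes, endothelial-like nuclei had the highest summed CPM of the 10 genes in the adult library and aged replicate 2, and neurons the lowest in all 3 libraries. Their summed level in endothelial-like nuclei was 735, 845 and 1277 CPM, which is 9.30, 4.05 and 10.0 times that of free RNA. In the adult library the next of the 10 classes tested was T cell-like nuclei, at 224 CPM. In the aged libraries the class like non-myelinating Schwann cells (NMSCs, which ensheath small axons) reached 1004 and 416 CPM, and aged replicate 1 was the library in which it exceeded the endothelial-like level. T cell-like nuclei (759 and 809 CPM), fibroblast-like nuclei (547 and 400 CPM), SGC-like nuclei (506 and 426 CPM) and the class like myelinating Schwann cells (MSCs, 478 and 153 CPM) all lay below NMSC-like nuclei in aged replicate 1. In aged replicate 2 T cell-like and SGC-like nuclei lay above NMSC-like nuclei, so the order of the classes differed between the replicates. B cell-like nuclei stood at 166, 200 and 178 CPM and cycling, erythroid-like nuclei at 145, 198 and 155 CPM, from 0.949 to 2.10 times free RNA. Counted per nucleus, neurons were not the lowest, with a mean of 0.443, 1.20 and 0.861 GTPase UMIs. B cell-like nuclei had 0.360, 0.643 and 0.538, and SGC-like nuclei 0.347, 4.80 and 4.11.

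**Figure D1:**
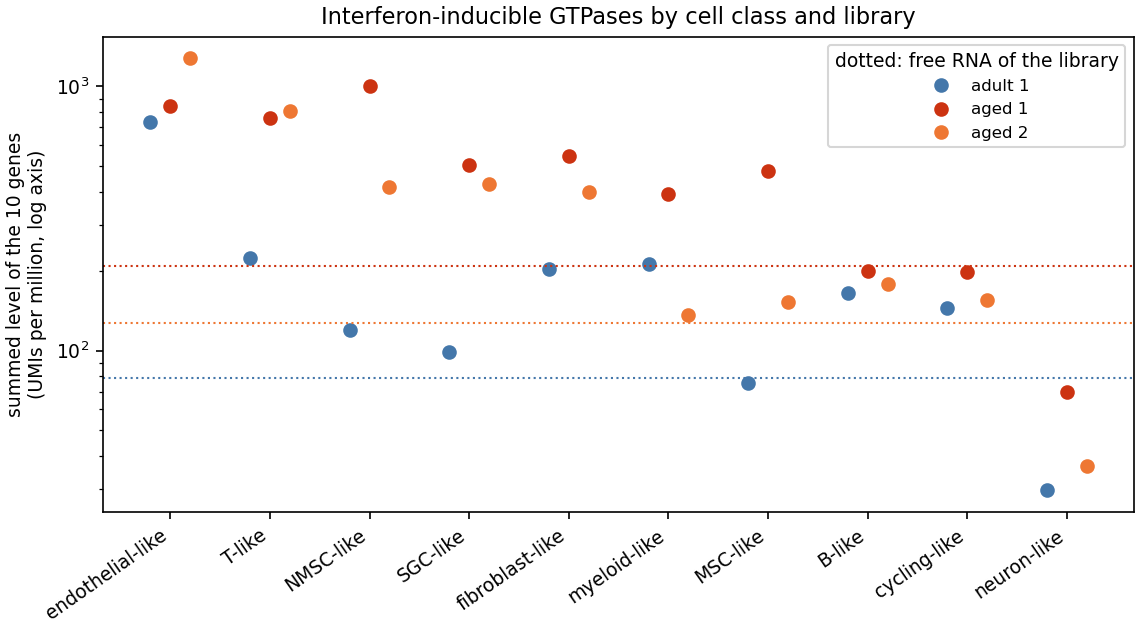
Summed level of the 10 GTPase genes (CPM, log axis) in 10 cell classes, with 1 point a library and the free RNA of each library as a dotted line. Endothelial-like nuclei sit between 735 and 1277 in all 3 libraries, and neurons lie below the free RNA of their own library.

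Set against the average over the remaining classes, with library as a block over 30 class sums, 7 of the 9 genes tested were called higher in endothelial-like nuclei (edgeR quasi-likelihood test, adjusted p below 0.05, as for all calls), where 14.5% of all genes tested were called higher. Tgtp1 was higher by 4.04 on the log2 scale (SE 0.59, adjusted p = 4.42e-06). The classes averaged include B cell-like nuclei, in which Tgtp1 had no UMI in any library, so the size of this value is uncertain. Of the other effectors, Iigp1 was higher by 3.69 (SE 0.39, adjusted p = 6.07e-09) and Tgtp2 by 2.13 (SE 0.52, adjusted p = 0.00284). Among the GBPs, Gbp4 was higher by 3.69 (SE 0.32, adjusted p = 7.91e-11), Gbp9 by 2.21 and Gbp7 by 1.71. The regulators differed, since Irgm2 was called higher (log2 fold change 1.26, SE 0.28, adjusted p = 0.000856) and Irgm1 was not (0.53, SE 0.42, adjusted p = 0.439), but the difference between them was not tested. Gbp2 was not called either (0.95, SE 0.43, adjusted p = 0.127). Without aged replicate 2 the call for Tgtp2 was lost (adjusted p = 0.0821). After thinning every nucleus to 1000 UMIs, 7 genes were tested and 4 called (12.8% of all genes), and with free RNA subtracted 9 of 9 were called (15.4%).

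The make-up of the GTPase UMIs also differed between classes. Iigp1 held 33.4%, 28.6% and 28.1% of them in endothelial-like nuclei, against 5.52%, 13.8% and 12.7% in SGC-like nuclei and 13.5%, 13.8% and 12.2% in free RNA. Gbp4 held 16.1%, 22.7% and 21.4% in endothelial-like nuclei, against 3.74%, 8.90% and 5.48% in SGC-like nuclei. Such shares were not particular to endothelial-like nuclei. Gbp4 held 15.5%, 19.4% and 25.0% in T cell-like nuclei. Iigp1 held 31.4% in myeloid-like nuclei of aged replicate 1, against 18.6% in the adult library and 10.4% in aged replicate 2.

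In NMSC-, SGC- and fibroblast-like nuclei, in which the members were higher with age, the values against the other classes draw on the aged libraries and are a description. The fit called 3 of 9 genes higher in NMSC-like nuclei (17.2% of all genes), 2 of 9 in SGC-like nuclei (21.3%) and 3 of 9 in fibroblast-like nuclei (20.3%). With the aged libraries alone it called 7, 6 and 4, beside 15.5%, 26.2% and 20.4% of all genes. Nothing is read from these counts. In NMSC-like nuclei the log2 fold change was 1.64 for Gbp2 (SE 0.32), 1.37 for Irgm2 (SE 0.24) and 0.97 for Gbp7 (SE 0.21). In the adult library alone, NMSC-like nuclei held Irgm2 at 44.4 CPM and Gbp2 at 10.4 CPM, below fibroblast-like (59.5 and 21.3 CPM), T cell-like (73.4 and 19.3 CPM) and endothelial-like nuclei (108 and 25.4 CPM). In SGC-like nuclei the log2 fold change was 0.88 for Irgm2 (SE 0.23) and 0.56 for Gbp7 (SE 0.19). In fibroblast-like nuclei it was 2.30 for Tgtp1, 1.32 for Iigp1 and 1.05 for Gbp4, and these calls were lost without aged replicate 2. In T cell-like nuclei 1 of 9 was called higher, Gbp4 by 2.41 (SE 0.51), beside 9.64% of all genes. In MSC-like nuclei 2 of 9 were called lower, Gbp4 (-2.20) and Gbp9 (-1.81), beside 12.0% of all genes. In the adult library alone these were at 2.96 and 1.48 CPM in MSC-like nuclei. SGC-like nuclei held them there at 3.69 and 1.59 CPM and NMSC-like nuclei at 2.61 and 1.57 CPM. The calls in MSC-like nuclei thus also draw on the aged libraries and are a description. In myeloid-like nuclei 1 of 9 was called lower, Gbp7 (-0.95), beside 19.0% of all genes. The counts in T cell-like and myeloid-like nuclei are near or below the background and no result about these genes.

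**Figure D2:**
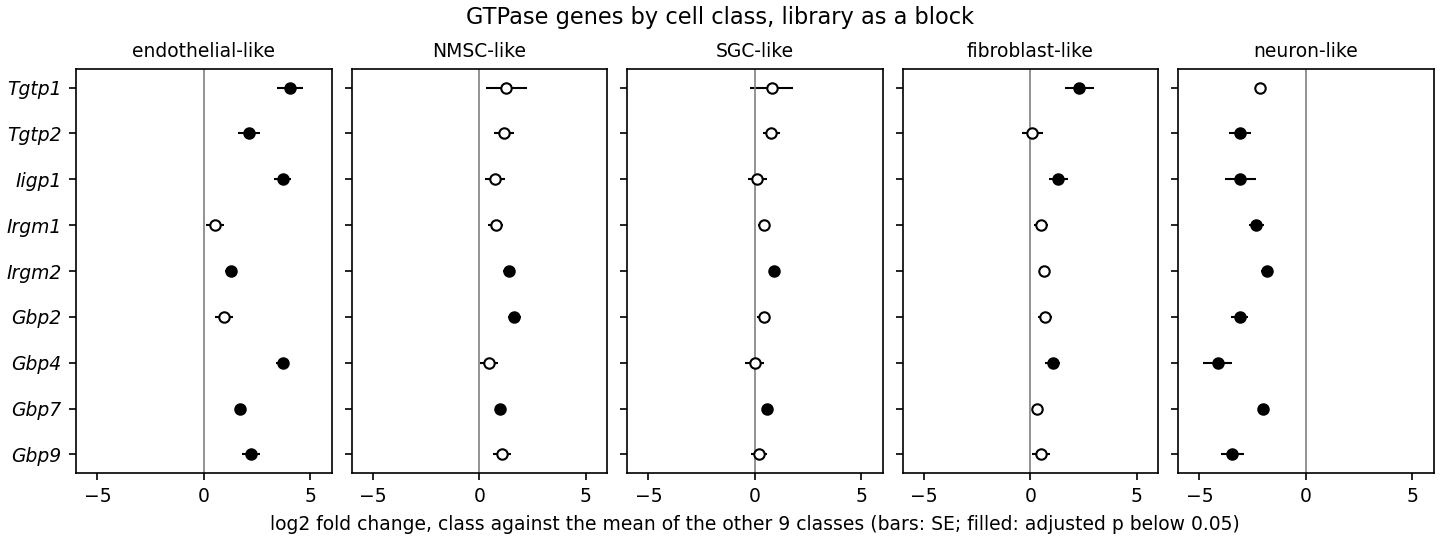
Log2 fold change of each GTPase gene in 5 cell classes against the mean of the other 9 classes (bars are SE, filled points have an adjusted p below 0.05, and no bar is drawn for Tgtp1 in neurons, where the SE could not be estimated). Points lie right of 0 in endothelial-like nuclei for 9 of 9 genes and left of 0 in neurons.

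In neurons 8 of the 9 genes were called lower, where 25.1% of all genes were called lower, with log2 fold changes from -4.14 for Gbp4 to -1.84 for Irgm2. Their summed level was 29.7, 69.8 and 36.6 CPM, or 0.376, 0.335 and 0.288 times that of free RNA in the same library. The remaining classes include those in which the genes were higher with age. The calls in neurons thus draw on values used to choose the genes and are a description. In the adult library alone the class next above neurons was MSC-like, at 75.4 CPM. Without aged replicate 2 the call for Gbp4 was lost. After thinning, 7 genes were tested and 4 called lower (1985 of 9013 genes in all). Among neurons named as a subtype by markers the level in the adult library ran from 21.0 CPM in TH neurons (low-threshold mechanoreceptors that express tyrosine hydroxylase) to 80.9 CPM in SST neurons (itch-related, 69 nuclei). Of the 88 GTPase UMIs in these SST neurons, 27 lay in 1 nucleus. SST neurons stood at 73.8 and 27.1 CPM in the aged libraries. TH neurons were also the lowest named subtype in the aged libraries, at 44.9 and 19.99 CPM. The highest was the peptidergic (PEP) subtype in aged replicate 1 (95.4 CPM, against 41.1 CPM in aged replicate 2) and the neurofilament (NF) subtype in aged replicate 2 (75.7 CPM, against 82.7 CPM in aged replicate 1), so the order was not kept between replicates. Neuron clusters with little Malat1, a nuclear RNA, stood at 55.4, 126 and 79.9 CPM, above the 26.9, 57.8 and 32.2 CPM of the other neurons of the same libraries. Free RNA was estimated at 52.15%, 38.2% and 46.0% of neuronal UMIs. With it subtracted 8 of the 9 genes were called lower than in the other classes (9.98% of all genes). The subtraction sets negative counts to 0, and only 2 of the 9 genes kept a value by age in neurons after it. This call therefore follows from the subtraction and says nothing more about neurons.

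In SGC-like nuclei the 9 genes with counts were higher in both aged libraries than in the adult one, which is the contrast they were chosen by. Among the effectors, Tgtp2 was at 1.51, 38.6 and 36.0 CPM, a log2 fold change of 4.43 (SE 0.34). Iigp1 was at 5.45 CPM against 69.5 and 54.0 CPM (3.32, SE 0.26), and Tgtp1 at 0.84 CPM, from 10 UMIs, against 7.92 and 8.43 CPM (3.06, SE 0.59). For these genes the aged replicates lay close to each other and far from the adult library.

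The regulators differed less on this scale. Irgm1 was at 7.30, 31.1 and 32.6 CPM (log2 fold change 1.93, SE 0.27). Irgm2 was at 42.2 against 135 and 119 CPM (1.41, SE 0.18). Of the GBPs, Gbp9 was at 1.59 against 25.1 and 26.8 CPM (3.82, SE 0.37) and Gbp4 at 3.69 against 45.01 and 23.4 CPM (3.07, SE 0.29). Gbp2 was at 6.71 against 71.5 and 47.9 CPM (2.99, SE 0.25) and Gbp7 at 29.5 against 82.1 and 78.5 CPM (1.26, SE 0.20). Aged replicate 1 was above aged replicate 2 by the widest margin for Gbp4 and Gbp2. The nuclear RNA Malat1 also moved with age here, with 8.75%, 2.25% and 2.43% of UMIs in SGC-like nuclei that held no GTPase UMI. In such nuclei of other classes it was 8.31%, 2.15% and 2.03% (NMSC-like), 6.46%, 2.19% and 2.13% (MSC-like), 4.999%, 2.31% and 2.10% (fibroblast-like) and 4.41%, 1.66% and 1.84% (endothelial-like), and its part in the values by age was not tested.

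The share of nuclei with a UMI moves with depth, so shares are given before and after thinning. In SGC-like nuclei Irgm2 had a UMI in 9.62%, 34.2% and 29.9% of nuclei. With every nucleus thinned to 1000 UMIs these shares were 3.65% (95% exact interval 3.04 to 4.33), 11.4% (8.82 to 14.3) and 9.59% (6.36 to 13.7). Intervals cover counting error only. Neurons, whose summed level lay below free RNA and whose median depths were 7453.5, 5928 and 7820 UMIs, had a UMI of Irgm2 in 13.2%, 19.8% and 18.7% of nuclei, and in 1.75%, 2.73% and 1.63% after thinning. Tgtp2 had a UMI in 0.471%, 17.4% and 16.2% of SGC-like nuclei and in 0.576%, 4.29% and 2.72% of neurons. Its thinned shares were 0.265% (0.121 to 0.502), 4.21% (2.69 to 6.25) and 4.06% (2.04 to 7.15) in SGC-like nuclei, against 0.0886%, 0.925% and 0.233% in neurons. After thinning, the SGC-like shares lay above the neuronal ones in each library for both genes.

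**Figure D3:**
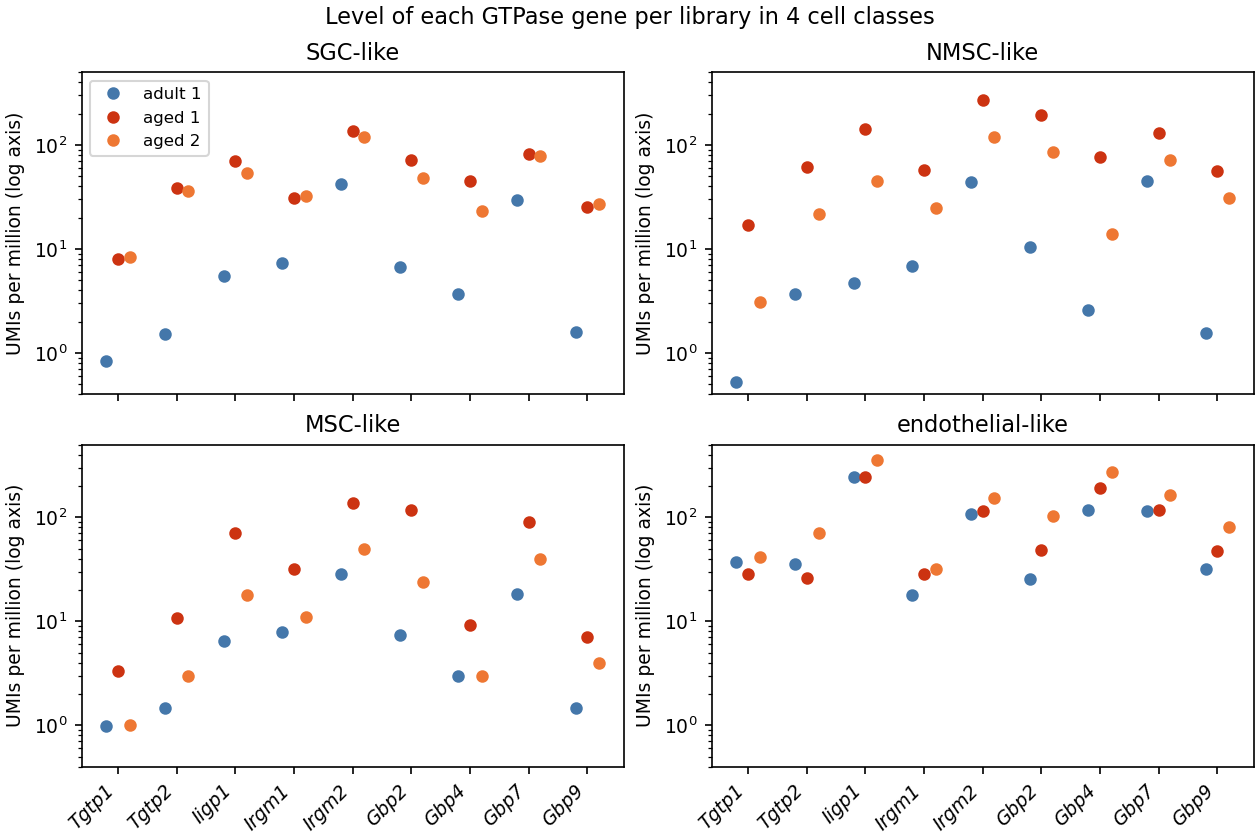
Level of 9 GTPase genes (CPM, log axis) in SGC-, NMSC-, MSC- and endothelial-like nuclei, with 1 point a library. The adult point is the lowest for all 9 genes in SGC- and NMSC-like nuclei, and the adult point is not the lowest for 3 of 9 genes in endothelial-like nuclei.

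NMSC-like nuclei showed the same direction with a wider gap between the aged replicates. Iigp1 was at 4.70, 143 and 44.7 CPM, Gbp2 at 10.4 against 194 and 86.3 CPM, and Irgm2 at 44.4 against 270 and 119 CPM. For each of these the value in aged replicate 1 was over 2 times that in aged replicate 2. The adult values of Tgtp1 and Gbp9 rested on 1 and 3 UMIs. Adult Tgtp1, Iigp1, Gbp4 and Gbp9 (0.52, 4.70, 2.61 and 1.57 CPM) lay below adult free RNA (2.27, 10.7, 3.73 and 1.98 CPM). For these genes the adult side is at background. The median log2 fold change of the 9 genes was 3.62, and 4.02 without aged replicate 2. Without aged replicate 1 the fit gave values for 7 of them, with a median of 2.37, against 3.41 for the same 7 with both replicates.

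In MSC-like nuclei aged replicate 1 stood far above aged replicate 2. Gbp2 was at 7.39, 117 and 24.0 CPM, while Iigp1 was at 6.40, 70.4 and 18.0 CPM. The adult summed level, 75.4 CPM, lay below the free RNA of that library (0.954 times), where Gbp2 was at 6.52 and Iigp1 at 10.7 CPM, so the adult side of these values is at background. The median over the 8 genes fitted was 1.86. For the 5 genes that also had a value without aged replicate 1 it was 1.85 with both replicates and 1.03 without that one, and for the 5 with a value after subtraction of free RNA it went from 1.85 to 4.01. Fibroblast-like nuclei had a median of 1.30 over 9 genes, with Iigp1 at 38.5 CPM against 92.6 and 100.01 CPM. Neurons also had a median of 1.30, which was 0.69 without aged replicate 1, at a summed level below free RNA. With free RNA subtracted only 2 of the 9 genes kept a value in neurons, and their median went from 0.44 to 7.83.

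Endothelial-like nuclei, high in all 3 libraries, had a median log2 fold change by age of 0.24 over 9 genes, with a range from -0.22 for Tgtp1 to 1.39 for Gbp2. Iigp1 was at 245, 242 and 359 CPM, and Gbp7 at 116 against 117 and 164 CPM. The median was 0.82 without aged replicate 1, then above that of neurons, 0.02 without aged replicate 2 and -0.37 with free RNA subtracted. Myeloid-like nuclei had a median of 0.37 over 8 genes, and 0.82 without aged replicate 2. For the 5 genes with a value without aged replicate 1 it was 0.25 with both replicates and -0.33 without that one. Their summed level, 214 CPM in the adult library, lay between the 392 and 137 CPM of the aged replicates. That the age difference itself varies between classes was not tested, since the contrast was used to choose the genes.

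The GTPase UMIs were spread unevenly over the nuclei of a class. Of SGC-like nuclei, 59.2% in aged replicate 1 and 57.6% in aged replicate 2 had a UMI of any of the 10 genes, against 19.7% in the adult library, and after thinning to 1000 UMIs 23.6% and 20.3% against 7.74%. Nuclei with 3 or more of the genes made up 24.9% and 21.4% of the aged libraries and 0.912% of the adult one, and those with 5 or more 13.6% and 11.1% against 0.147%. After thinning, nuclei with 3 or more were 5.49% and 2.95% against 0.0588%, and those with 5 or more 1.10% and 0.369% in the aged libraries, with none in the 3399 adult nuclei, which allows a share of up to 0.0883%. The tenth of SGC-like nuclei with the most GTPase UMIs held 63.8% and 69.2% of them in the aged libraries and 71.9% in the adult one, and up to 85 UMIs were found in a nucleus. In the adult library 80.3% of these nuclei held no GTPase UMI. Few counts raise such a share, so the libraries are not compared by it. In NMSC-like nuclei 3 or more genes were found in 22.2% and 10.2% of the aged libraries and in 0.704% of the adult one, or 9.51%, 4.38% and 0.141% after thinning. Endothelial-like nuclei had 3 or more in 18.7% of the adult library and in 35.7% and 43.3% of the aged ones, and 7.18%, 6.59% and 5% after thinning.

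**Figure D4:**
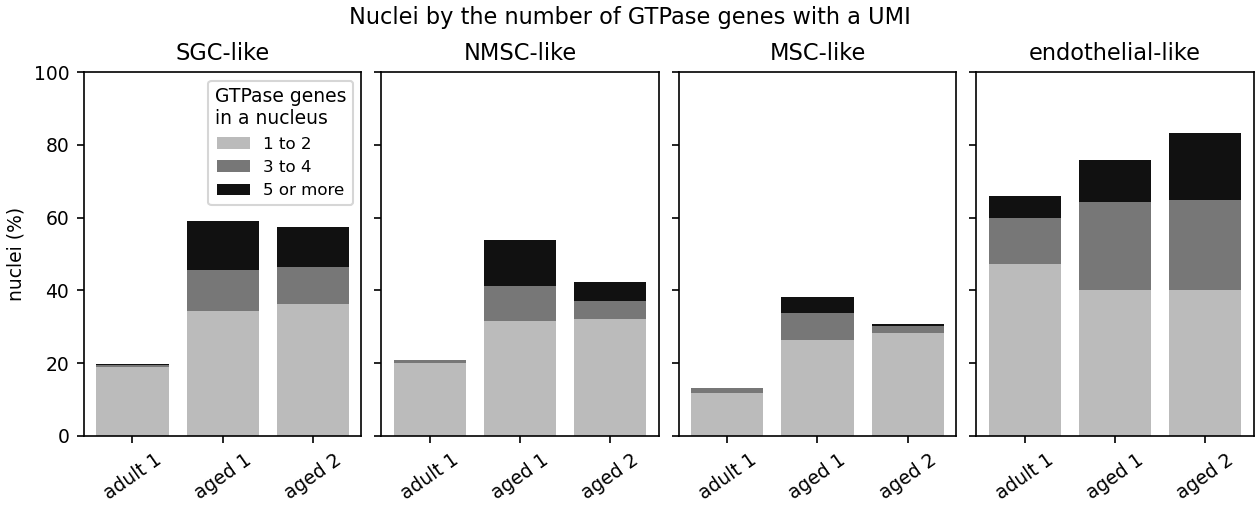
Share of nuclei (%) by how many of the 10 GTPase genes had a UMI, before thinning, in 4 classes and 3 libraries, with nuclei that had none left blank up to 100. Nuclei with 5 or more genes make up 13.6% and 11.1% of SGC-like nuclei in the aged libraries and 0.147% in the adult library.

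In SGC-like nuclei the genes were found together in the same nuclei. Among SGC-like nuclei of aged replicate 1 thinned to 1000 UMIs, 83.3% of the nuclei with an Iigp1 UMI also held a UMI of another member, against 19.2% of nuclei without Iigp1. For Gbp2 these shares were 84.2% and 17.9%, and for Irgm2 72.6% and 13.8%. In aged replicate 2 they were 66.7% and 16.6% for Iigp1 and 69.2% and 11.8% for Irgm2. In the adult library, with few nuclei that held a gene, they were 40.0% and 7.33% for Iigp1 (15 nuclei) and 17.7% and 4.24% for Irgm2 (124 nuclei). Before thinning, nuclei with and without Iigp1 had medians of 4102 and 3210 UMIs in the adult library, 7064 and 7257 in aged replicate 1 and 8888 and 7797 in aged replicate 2. For the other genes the nuclei that held the gene were deeper in some cases and shallower in others, from 5069 against 7264 UMIs for Gbp9 in aged replicate 1 to 9533 against 7788 for Tgtp2 in aged replicate 2. In neurons both shares were lower than in SGC-like nuclei. For Irgm2 they were 5.06% and 1.76% in the adult library, 23.1% and 4.67% in aged replicate 1 and 4.76% and 3.32% in aged replicate 2. For Gbp2 and Iigp1 in aged replicate 1 they were 41.4% and 6.13%, and 31.6% and 6.53%. In adult neurons none of the 34 nuclei with Gbp7 held another member, which allows a share of up to 8.82%, against 2.74% of those without.

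Nuclei with several GTPase genes also carried more of other genes of the pathway, in each library. In SGC-like nuclei with 3 or more GTPase genes (31, 136 and 58 nuclei) Nlrc5, the transactivator of class I genes, was at 440, 288 and 260 CPM. In those with none it was at 22.2, 42.6 and 64.2 CPM. Gbp6, which is no member, was at 270, 165 and 152 CPM against 8.36, 17.6 and 28.2 CPM. The class I presentation list summed to 1336, 1256 and 1164 CPM against 375, 513 and 625 CPM. For these genes the adult nuclei with 3 or more GTPase genes lay above the aged ones. Adult values were smaller for Gbp5 (69.5 against 87.9 and 103 CPM), Ifi47 (30.9 against 74.65 and 63.1 CPM) and Irf1 (92.7 against 119 and 96.9 CPM). These 3 adult values rested on 9, 4 and 12 UMIs, so no direction is read from them. The same cut of 3 genes was used at unlike depths of the libraries, so adult and aged nuclei are not compared further. The nuclei with 3 or more genes were deeper, with medians of 3698, 8466 and 9556 UMIs against 3150, 6503 and 6664.

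Interferon receptors and kinases differed little between the same nuclei, with 371, 515 and 549 CPM against 343, 473 and 490 CPM, and the list of autophagy conjugation genes stood at 602, 992 and 903 CPM against 523, 672 and 584 CPM. Markers of SGCs were at 1954, 2601 and 2086 CPM against 1817, 1873 and 1765 CPM, so nuclei with several GTPase genes held the markers of their class. Markers of some other cell types were higher in them too, in each library. Neuron markers were at 919, 1909 and 1898 CPM against 856, 1354 and 1114 CPM, fibroblast markers at 371, 278 and 239 CPM against 201, 211 and 216 CPM, and MSC markers at 950, 577 and 632 CPM against 679, 529 and 544 CPM. Endothelial markers (61.8, 53.6 and 12.85 CPM against 70.1, 43.2 and 62.9 CPM) and B cell markers (0, 39.8 and 21.0 CPM against 66.0, 36.35 and 23.1 CPM) were higher in aged replicate 1 alone. Summed myeloid markers were at 46.3, 35.4 and 37.4 CPM against 41.1, 27.0 and 23.1 CPM, and summed T cell markers at 15.4, 19.9 and 82.9 CPM against 29.7, 16.3 and 24.4 CPM. T cell markers thus stood well above the other nuclei in aged replicate 2, near them in aged replicate 1 and below them in the adult library, and the part of these markers in the values was not tested.

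In other classes Gbp6 was at 271, 185 and 249 CPM against 2.39, 6.85 and 3.12 CPM in MSC-like nuclei (9, 69 and 5 nuclei with 3 or more), the last 3 values from 4, 10 and 2 UMIs. MSC markers were at 26580, 14230 and 17880 CPM against 38180, 14910 and 12620 CPM there. In aged replicate 1 myeloid markers were at 164 against 40.4 CPM, T cell markers at 71.5 against 17.1 CPM and SGC markers at 1104 against 593 CPM, and in the adult library endothelial markers were at 949 against 109 CPM. In fibroblast-like nuclei Gbp6 was at 345, 195 and 182 CPM against 9.31, 19.5 and 11.3 CPM. Fibroblast markers were lower in those with 3 or more GTPase genes, at 3799, 2734 and 3537 CPM against 4388, 3846 and 4785 CPM. In aged replicate 1 neuron markers were at 2128 against 818 CPM, SGC markers at 1517 against 988 CPM, and the SGC genes Fabp7 and Kcnj10 at 54.1 and 75.7 CPM against 1.39 and 2.78 CPM, while in aged replicate 2 Fabp7 and Kcnj10 had no UMI in the nuclei with 3 or more. The part of these markers in the values was not tested. In endothelial-like nuclei Nlrc5 was at 128, 131 and 161 CPM against 30.4, 29.9 and 36.4 CPM, the last 3 values from 7, 4 and 1 UMIs. Nuclei were divided by the GTPase counts themselves, so these values are a description.

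**Figure D5:**
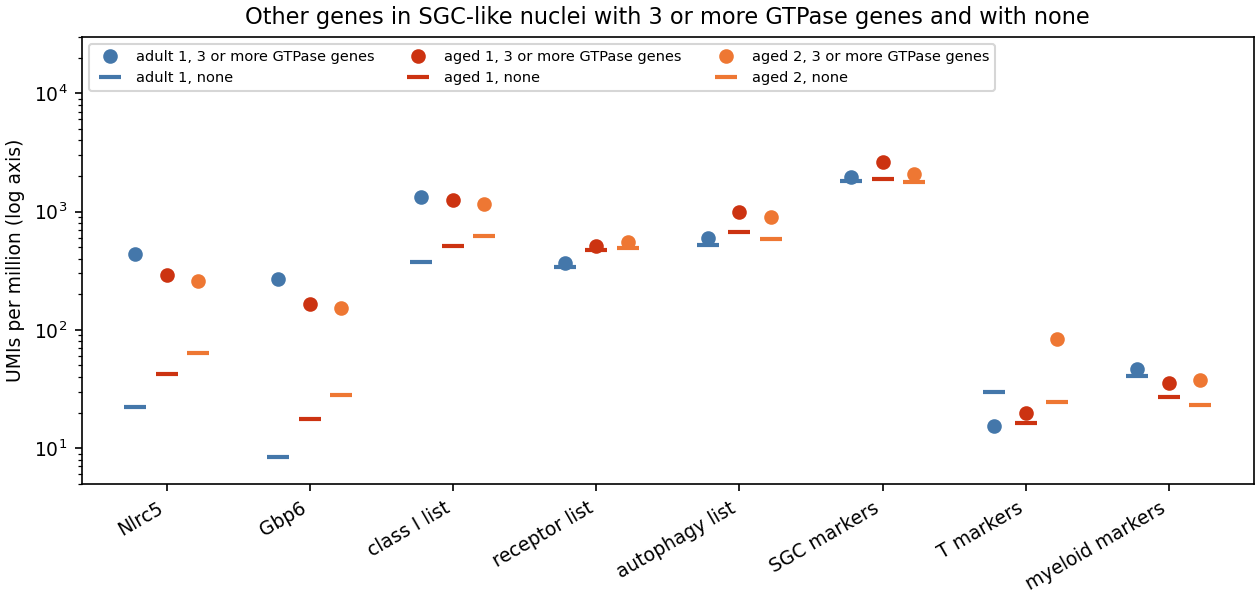
Level (CPM, log axis) of genes, gene lists and cell type markers in SGC-like nuclei with 3 or more GTPase genes (circles) and with none (dashes), by library. Circles for Nlrc5 and Gbp6 lie between 152 and 440 and their dashes between 8.36 and 64.2, while receptor genes and SGC markers lie close together.

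Other genes of the pathway were counted by age from lists, in the same fits, and these share the contrast by which the members were chosen. The adult side is 1 library, and without a filter on low counts edgeR called none of 25854 genes in SGC-like nuclei, so the calls and values are a description with no p. Of the other IRG and GBP genes, 12 of the 16 in the matrices were tested in SGC-like nuclei, 9 were called higher in the aged libraries and none lower (7.96% and 7.61% of all genes). F830016B08Rik was higher by 3.23 on the log2 scale (SE 0.27), with 4.45 CPM against 44.0 and 52.5 CPM, and Gbp5, which assembles on pathogen vacuoles and promotes inflammasome activation, by 3.02 (SE 0.28). Ifi47, an IRG effector, was higher by 2.65, Gbp8 by 2.65, Gm4951 by 2.53, Gbp6 by 2.13 and Irgq by 0.77. Gvin1, a very large inducible GTPase, did not pass (0.54, SE 0.29). The median of the list was 2.09, beside 0.00 over all genes.

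Few UMIs of the 7 interferon ligand genes of the list were found in the named classes, which does not show that a ligand was absent. Ifng had 6, 1 and 0 UMIs, Ifna4 had 1 UMI and Ifnk 2 in all, and Ifnb1, Ifnl2, Ifnl3 and Ifne had none, so that no ligand was tested. Of 7 receptors and kinases only Jak1 was called higher (log2 fold change 0.69, SE 0.17), with 140 CPM against 267 and 249 CPM, while Jak2 (0.22) and Ifnar2 (-0.28), a chain of the type I receptor, did not pass. Of 14 transcription factors and feedback genes 3 were called higher, among them Nlrc5 by 1.74 (SE 0.18) and Irf1, an interferon-induced transcription factor, by 0.64 (SE 0.20). Nlrc5 was at 35.8, 133 and 139.8 CPM. Stat2 (0.45), Stat3 (0.26) and Irf2 (-0.19) did not pass.

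Of 19 antiviral genes tested, 8 were called higher. Zbp1, a sensor of Z-form nucleic acids, was higher by 2.67 (SE 0.40), Ifit3b by 1.74, Ifit3 by 1.57, Ifit1 by 0.94, Ifit2 by 0.83 and Rtp4, an interferon-induced chaperone, by 0.78. Ddx58, the RNA sensor RIG-I, and Parp14 had log2 fold changes of -0.03 and -0.09 and did not pass. Of 12 class I presentation genes 10 were called higher, among them the peptide transporter Tap1 by 1.68 (SE 0.22), the immunoproteasome subunits Psmb9 by 1.31 and Psmb8 by 0.92, the light chain B2m by 0.86, H2-D1 by 0.88, H2-K1 by 0.71 and the proteasome activator Psme2 by 0.76. The medians of the antiviral and class I lists were 0.61 and 0.75. Of 10 autophagy conjugation genes 2 were called higher, Gabarapl1 by 0.62 and Map1lc3b by 0.65, and Map1lc3a (0.43) did not pass.

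Over all lists 33 of 74 genes tested were called higher in SGC-like nuclei (7.96% of all genes), 27 of 71 in NMSC-like (4.37%), 19 of 71 in MSC-like (4.02%), 9 of 79 in neurons (1.78%) and 7 of 76 in fibroblast-like nuclei (2.11%). In endothelial-like nuclei 1 of 73 was (0.375%), and in myeloid-like nuclei 1 of 72 was (2.34%) and 2 were called lower (2.25%). The lists share the contrast by which the members were chosen, so these counts are a description. The count in SGC-like nuclei was 16 by DESeq2 (1.78% of all genes) and 11 after thinning to 1000 UMIs (1.65%). It was 0 by edgeR without a filter on low counts, where none of all 25854 genes was called. With 1 adult library these calls assume that it varies as the aged libraries do.

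Across the 30 class and library sums, the genes whose log2(CPM + 1) was most like that of the summed members came largely from the same pathway. Gbp5 had a Pearson r of 0.818, followed by Gm12216 (0.810), Ifi47 (0.802), Gbp8 (0.799) and Gm4951 (0.792), of 18998 genes with at least 100 UMIs. Bst2 (0.774), which tethers budding virions, Herc6 (0.760), a HERC-family gene, Ifih1 (0.742), the RNA sensor MDA5, Tap2 (0.741), the partner of Tap1, and B2m (0.733) completed the 10 most similar genes. Of these, 8 were in the lists of the pathway. The points share libraries, depth and free RNA, and Gbp8 overlaps the members Gbp4 and Gbp9, so that r is a description.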

How the data were processed

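Single-nucleus libraries of 3 samples were analysed (1 adult, 2 aged). The deposited files hold raw UMI counts per gene and barcode with no barcode filter, which the authors made with Pipseeker on mm10; the annotation release is not given in the sources used here, nor is the use of strand. The members and gene lists were chosen with earlier results of these data known. Nuclei were clustered in Seurat 5.3.0 (SCTransform, RPCA by age, 30 components, resolution 0.8) without the members and pathway lists, and the scoring of markers was settled after the clusters had been seen. Mixed clusters (338, 358 and 146 nuclei) were left out, and no doublet caller was run. UMI counts were summed per class and library, and tested across all genes with edgeR 4.0.16 (filterByExpr, TMM, quasi-likelihood, Benjamini-Hochberg) under R 4.3.3: each class against the average over the remaining classes (20 or more nuclei a library), and, within a class, aged against adult with 1 residual degree of freedom. The study tests nuclei as replicates with a Wilcoxon test, which was not used. The tests were run on simulated data first. Class shifts, judged by the size of the log2 fold change and not by calls, were mostly recovered. Large age changes were mostly called, but most small (2-fold) age changes were not. Named genes are the members, the 3 genes of most UMIs in a list, up to 6 called in SGC-like nuclei, and the 10 genes most similar in level. Total UMIs were 167664164, 95647106 and 69045987. Labels give 21 months for the aged mice, the series text another age, and the labels were used. DESeq2 1.42.0, other filters, scaling, clusterings and thinning were tried as alternatives. Results for 1 gene of the lists are not reported here.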

Additional observations from a re-analysis of the deposited data

Results flagged for a closer look

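In myeloid-like nuclei Irgm2 was lower in both aged libraries (56.1 and 30.9 CPM) than in the adult one (61.5 CPM), with a log2 fold change of -0.45 (SE 0.50), while in SGC-like nuclei both aged libraries were higher. It stands out because every aged library moved in opposite directions in the 2 classes; the difference was not tested. The adult value rests on 17 UMIs.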

How the results depend on the processing

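Settings that changed a count of GTPase genes called by class were as follows. Thinned to 1000 UMIs a nucleus, with 7 genes tested, the counts were 4 in endothelial-like nuclei (12.8% of all genes), 1 in SGC-like (20.9%), 1 in fibroblast-like (19.9%) and 4 lower in neurons (1985 of 9013 genes). With free RNA subtracted they were 4 in SGC-like (19.1% of all genes) and 6 in fibroblast-like nuclei (18.7%). DESeq2 gave 1 in SGC-like (21.3% of all genes) and 1 in fibroblast-like nuclei (21.3%). In SGC-like nuclei no TMM scaling gave 1 (16.5%) and clusters from all variable genes 1 (16.9%). No filter on low counts gave 7 in NMSC-like (8.82%) and 5 in fibroblast-like nuclei (12.2%). Leaving out each library in turn gave 6 to 8 in endothelial-like (9.34% to 13.3% of all genes) and 2 to 7 in NMSC-like nuclei (11.6% to 15.5%). It gave 0 to 6 in SGC-like (15.1% to 26.2%) and 0 to 4 in fibroblast-like nuclei (14.5% to 20.4%). In neurons 7 to 8 were lower (15.2% to 17.6%). Genes of the lists called higher with age were 33, 27 and 19 in SGC-, NMSC- and MSC-like nuclei. They were 18, 8 and 4 in nuclei of more than 2000 genes (1.37%, 2.38% and 3.01% of all genes), 11, 11 and 10 after thinning (1.65%, 3.12% and 1.93%), 3, 10 and 8 with a marker gate (14.4%, 2.10% and 2.31%), and 16, 4 and 1 by DESeq2 (1.78%, 0.965% and 0.536%). By edgeR they were 0 in SGC-like nuclei without a filter and 0 in NMSC-like nuclei with free RNA subtracted. There none of all 25854 and 10079 genes was called, so these zeros say nothing about the lists. The median log2 fold change of the GTPases by age was 3.63 in SGC-like, 4.01 in MSC-like (5 genes) and -0.37 in endothelial-like nuclei with free RNA subtracted, and 2.63 in SGC-like nuclei with the marker gate. Without each aged library, over the genes still fitted, it ran from 2.67 to 3.24 in SGC-like, 2.37 to 4.02 in NMSC-like, 1.03 to 2.18 in MSC-like and 0.018 to 0.82 in endothelial-like nuclei. The marker gate turned the sign of Irgm2 (-0.50), Gbp2 (-0.75) and Gbp7 (-0.82) in NMSC-like nuclei, and of B2m (-0.83), H2-D1 (-0.91), Gabarapl1 (-2.54) and Map1lc3b (-3.55) by age in SGC-like nuclei. The gate put 8174 nuclei in the NMSC set, of which 12.9% were NMSC-like, 48.6% SGC-like and 35.3% neurons by cluster, and 62 in the SGC set, of which 25.8% were SGC-like, so its values are for other nuclei. The causes of these changes were not tested. Leaving out the SGC-like cluster with B cell marker UMIs (132 nuclei), an alternative chosen after seeing the data, moved no count by over 1.5 times.

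No paired analysis was possible because the adult and aged groups share fewer than 2 replicate numbers. With 1 adult library, age fits assume it varies as the aged ones do, and leaving out an aged library leaves values with no test. Low counts limit Tgtp1 and Igtp in particular.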

Other observations

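An unnamed cluster led by Ranbp3l, Atp13a5, Slc22a8, Slc6a20b and Ptgds, with too few markers of any list to be named, held the GTPases in the adult library too. Its summed level was 450 CPM over 136 adult nuclei, of which 55.9% had a UMI of a member, and 278 and 236 CPM over 21 and 11 nuclei of aged replicates 1 and 2. Iigp1 was there at 123.5 CPM (adult), 41.1 CPM and 13.9 CPM (aged replicates 1 and 2). Mural-like nuclei stood at 245 CPM over 57 adult nuclei, 1384 CPM over 18 nuclei of aged replicate 1 and 248 CPM over 3 nuclei of aged replicate 2, too few for a comparison.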
